A study of Mus musculus with 12 samples.

Results

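Laminins and hemidesmosome anchors are proteins that fasten basal keratinocytes to the basement membrane, the sheet of matrix under the epidermis. The genes described are 9 of 17853 measured, chosen by name: the laminin chains Lama3, Lama5, Lamb1, Lamb3 and Lamc1, the collagens Col17a1 and Col7a1, and the plakins Dst and Plec. A total of 550 exon probe sets that carry 1 gene symbol reported on them, between 25 for Lamb3 and 110 for Dst.

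The data are 12 exon arrays. Epidermal cells of back skin were sorted from female Gata6-mTomato reporter mice on a C57BL6/CBA background, and each of 4 populations has 3 arrays labelled as biological replicates. Gata6+Itga6- cells carried the red reporter of the transcription factor Gata6 and lacked the surface integrin Itga6. Gata6+Itga6+ cells carried both. CD34+ cells had Itga6 and the bulge stem cell marker CD34 without the reporter, and remaining basal cells had Itga6 with neither CD34 nor the reporter. All 12 samples come from reporter mice. The hair follicles were in telogen, the resting phase. The labels give no age.

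Laminins are trimers of an alpha, a beta and a gamma chain. The skin's own anchoring laminin contains the chains of Lama3 and Lamb3, and other trimers join Lama5 to Lamb1 and Lamc1. Hemidesmosomes are rivet-like complexes in which the integrin of Itga6 and Itgb4 and the transmembrane collagen of Col17a1 bind laminin outside the cell, while the plakins encoded by Dst and Plec tie them to keratin filaments inside. Collagen of Col7a1 builds the anchoring fibrils that reach from the basement membrane into the dermis.

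Levels are log2 of the deposited intensity plus 1, taken for a gene as the median of its probe sets. The level of silent genes was set at 2.46, the 95th percentile of population means over 1144 genes of olfactory and vomeronasal receptors. A fold is 2 to the power of the difference of levels. Where the lower mean lay under 2.46 the fold was taken against 2.46 and is written as at least. A gene is called where limma's Benjamini-Hochberg adjusted p over all 17853 genes is under 0.05. Probes differ in brightness, so levels are compared between populations and not between genes.

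The sort genes followed the gates. Mean Gata6 levels were 5.84 for Gata6+Itga6-, 4.39 for Gata6+Itga6+, 2.84 for CD34+ and 2.73 for remaining basal arrays. Cd34 was at 7.95 in CD34+ cells, with 1.66 to 1.96 elsewhere. Itga6 was at 6.02 in Gata6+Itga6- cells and from 6.76 to 7.67 in the other populations, so its RNA was not absent from cells sorted without its protein. Mean levels of a list of suprabasal markers ran from 6.65 to 6.90 over the Gata6+Itga6- arrays, 5.81 to 6.45 over Gata6+Itga6+, 4.26 to 4.61 over CD34+ and 5.23 to 5.76 over remaining basal arrays. A basal list ran from 7.59 to 8.11, 8.97 to 9.17, 9.02 to 9.27 and 9.09 to 9.39 in the same order. CD34+ replicate 2 stood apart in the fat marker Fabp4 (5.51, against 1.30 and 1.32 in replicates 1 and 3) and in the antigen presentation gene H2-Aa (3.83). H2-Aa also reached 3.06 to 3.82 on the Gata6+Itga6- arrays, and the T cell gene Cd3e was at 3.80 in Gata6+Itga6- replicate 3.

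By value, Gata6+Itga6- cells had the lowest mean level of 8 of the 9 genes, Lamb1 being the exception. Against Gata6+Itga6+, CD34+ and remaining basal cells, 8, 9 and 9 of the genes were lower by value. Of all genes 56.5%, 53.2% and 49.7% were lower by value in these comparisons. The share of all genes with their lowest mean in Gata6+Itga6- cells is not given here. In an F test over the populations 6 of 9 genes were called, with 9.38% of all genes called: Lama3, Lama5, Lamb3, Col17a1, Col7a1 and Dst. Lamb1, Lamc1 and Plec were not. Mean levels of Lama5, Lamb1, Lamb3 and Col7a1 lay under that of silent genes in Gata6+Itga6- cells, whereas in each other population Lamb1 alone did. The populations are bulk samples, in which fewer cells making a transcript and less transcript per cell cannot be told apart.

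**Figure D1:**
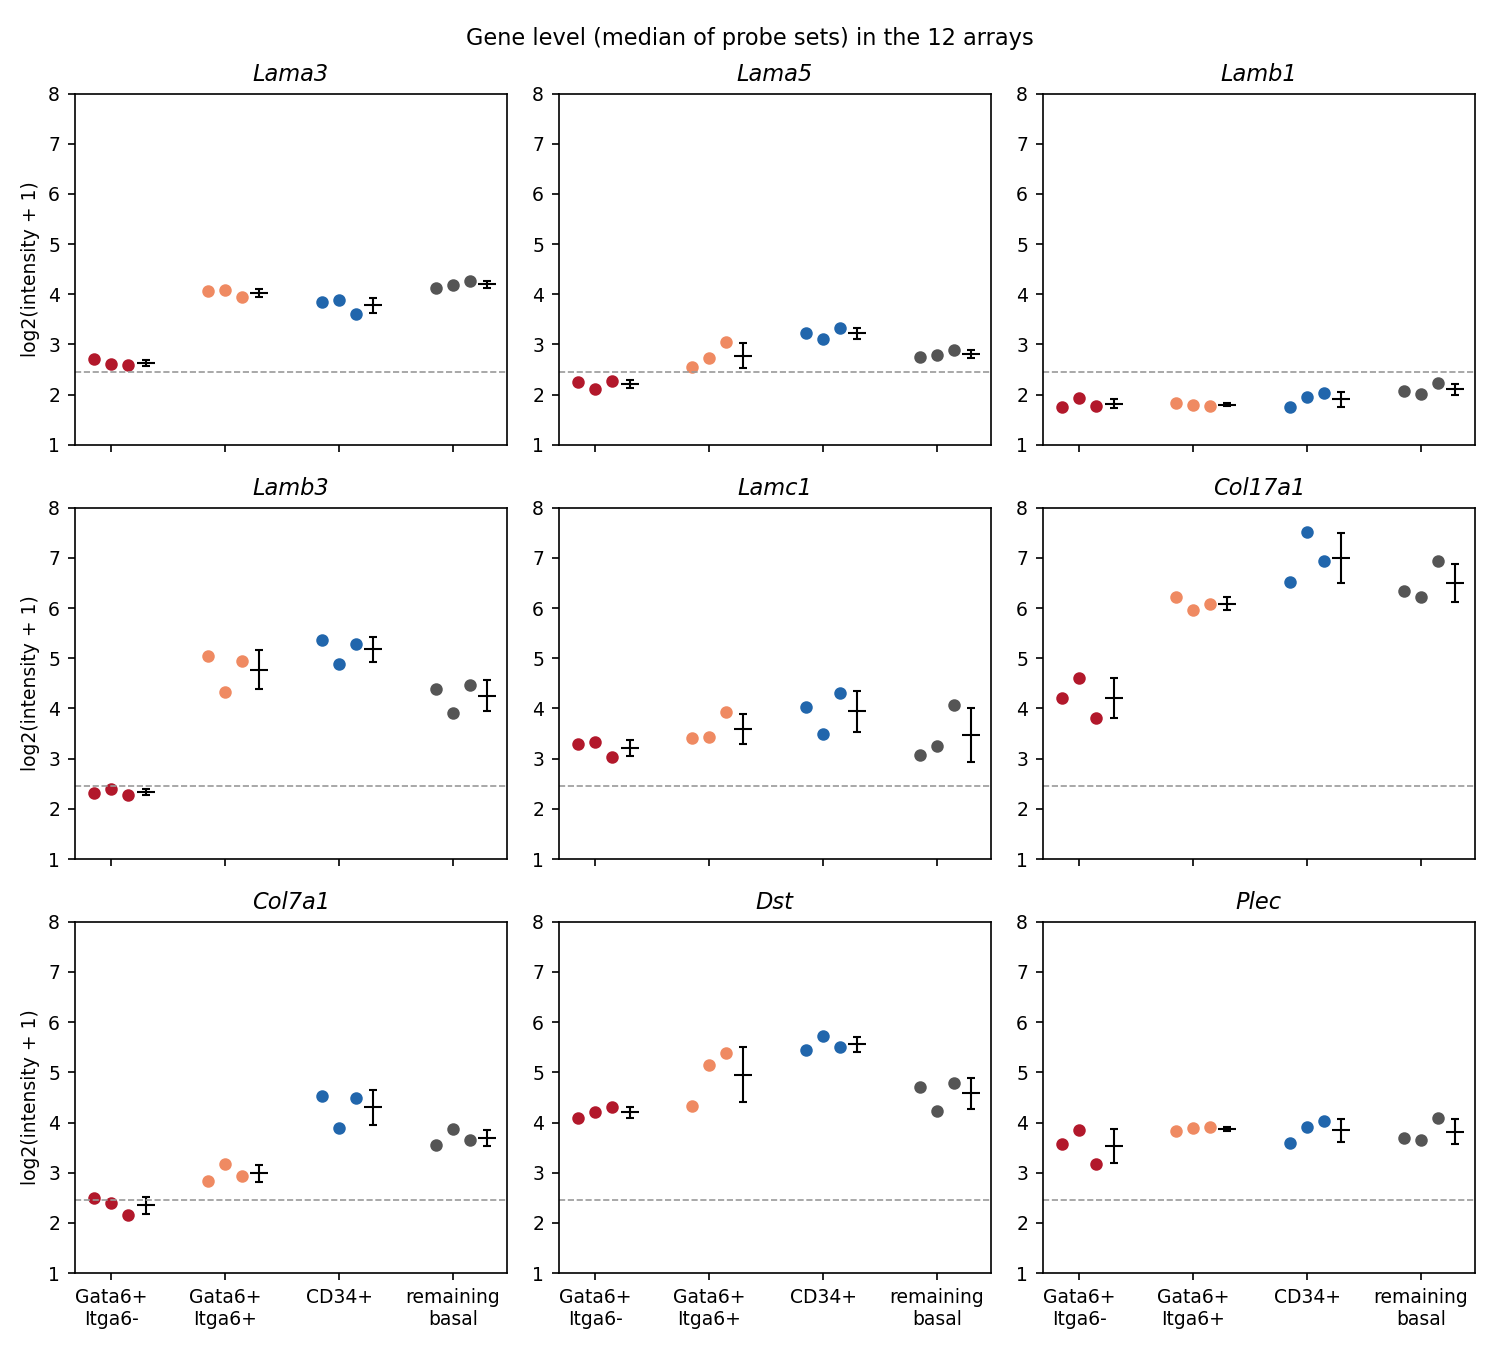
Level of each gene, log2 of intensity plus 1, on the 12 arrays; coloured points are arrays, the horizontal mark and bar beside them are mean ± SD (n = 3), and the dashed line is the level of silent genes, 2.46. The Gata6+Itga6- points lie below all others for Lama3, Lama5, Lamb3, Col17a1 and Col7a1.

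Promoters are shown for Lamb3, Col17a1 and Col7a1, the genes with the widest ranges of population means, all lower in Gata6+Itga6- cells. Each window covers the 250 bases before a transcription start in RefSeq, build GRCm38.p6, and is written 5′ to 3′ on the strand of the gene. Capitals mark matches on either strand to one of 4 motifs searched. The AP-1 motif was searched as TGANTCA and that of GATA factors as GATAA. For Sp1 the letters were GGGCGG. The TEAD motif was searched as GGAATG. No match overlapped another in the windows printed.
Lamb3, chr1:193301993-193302242, plus strand: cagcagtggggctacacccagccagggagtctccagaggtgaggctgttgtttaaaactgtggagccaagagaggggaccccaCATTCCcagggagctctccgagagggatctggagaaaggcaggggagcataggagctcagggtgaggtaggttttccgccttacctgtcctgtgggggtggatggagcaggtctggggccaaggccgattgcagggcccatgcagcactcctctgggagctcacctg
Col17a1, chr19:47692043-47692292, minus strand: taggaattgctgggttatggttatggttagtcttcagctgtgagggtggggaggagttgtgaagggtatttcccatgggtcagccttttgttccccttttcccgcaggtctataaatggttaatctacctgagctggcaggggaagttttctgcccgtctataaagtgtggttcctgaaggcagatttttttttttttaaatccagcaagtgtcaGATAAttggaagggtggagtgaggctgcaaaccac
Col7a1, chr9:108953336-108953585, plus strand: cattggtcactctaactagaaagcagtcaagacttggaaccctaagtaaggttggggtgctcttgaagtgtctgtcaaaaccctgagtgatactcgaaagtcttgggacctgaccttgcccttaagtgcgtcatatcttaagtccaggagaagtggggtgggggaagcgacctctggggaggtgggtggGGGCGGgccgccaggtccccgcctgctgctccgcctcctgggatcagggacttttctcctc
The Lamb3 window held 1 TEAD match, 167 bases before the start. That of Col17a1 held 1 GATA match, 35 bases before the start, and that of Col7a1 held 1 Sp1 match, 61 bases before it. Among all 32851 windows of this length, 12.642% held a TEAD, 22.581% a GATA, 32.742% an Sp1 and 6.749% an AP-1 match. RefSeq windows were used for 6 of the 9 genes, 8 windows in all, and none of these held the AP-1 letters. The other Lamb3 window held no match. The Lama5 window held 4 Sp1 matches and that of Lamb1 held 2. One Dst window held 4 Sp1 matches and the other 1 GATA match. A match describes letters only.

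Lama3, the alpha chain of the anchoring laminin, was lowest in Gata6+Itga6- cells. Its level was 2.70, 2.62 and 2.59 on the Gata6+Itga6- arrays, 4.07, 4.09 and 3.94 on the Gata6+Itga6+ arrays, 3.84, 3.89 and 3.60 on the CD34+ arrays and 4.13, 4.19 and 4.27 on the remaining basal arrays. No Gata6+Itga6- array came near the other populations, while the other 3 lay within 1 unit of each other without overlapping. Relative to Gata6+Itga6+ cells, Lama3 was 2.64-fold lower (-1.40 on the log2 scale, SE 0.10, limma adjusted p = 7.19e-05). It was 2.21-fold lower relative to CD34+ cells (-1.14, adjusted p = 4.58e-05) and 2.95-fold lower relative to remaining basal cells (-1.56, adjusted p = 1.03e-05). The first of these calls was lost with the brightest probe set alone (adjusted p = 0.0946). Remaining basal cells had the highest mean, and Gata6+Itga6+ cells did not differ from them beyond the test (-0.16, 95% interval -0.38 to 0.06, adjusted p = 0.601).

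Lamb3, the beta chain that pairs with Lama3, followed with a wider gap. It stood at 2.31, 2.40 and 2.28 on the Gata6+Itga6- arrays, 5.04, 4.32 and 4.95 on the Gata6+Itga6+ arrays, 5.36, 4.89 and 5.27 on the CD34+ arrays and 4.40, 3.90 and 4.46 on the remaining basal arrays. All Gata6+Itga6- arrays were at or below 2.40, under the silent level, and all other arrays were over it. Relative to Gata6+Itga6+ cells Lamb3 was at least 4.95-fold lower (-2.44 on the log2 scale, SE 0.21, limma adjusted p = 0.000241). Against CD34+ cells it was at least 6.55-fold lower (-2.85, adjusted p = 1.62e-05), and against remaining basal cells at least 3.46-fold (-1.93, adjusted p = 0.000443). These 3 calls held under each of the 23 other settings.

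Lama5, the alpha chain of the other epidermal laminins, was dim. Its levels were 2.25, 2.12 and 2.27 on the Gata6+Itga6- arrays, 2.55, 2.73 and 3.04 on the Gata6+Itga6+ arrays, 3.23, 3.10 and 3.33 on the CD34+ arrays and 2.75, 2.79 and 2.90 on the remaining basal arrays. CD34+ arrays were highest and Gata6+Itga6- arrays lowest, with the other 2 populations overlapping between them. Relative to CD34+ cells Lama5 was at least 1.69-fold lower (-1.01 on the log2 scale, SE 0.13, limma adjusted p = 0.000623), a call that held under all 23 other settings. The changes against Gata6+Itga6+ cells (-0.56, adjusted p = 0.0439) and remaining basal cells (-0.60, adjusted p = 0.022) were weak. The first was lost under 20 of the 23 settings, the adjusted p reaching 0.598. The second was lost under 8, among them without remaining basal replicate 2 or 3 and without Gata6+Itga6- replicate 1, 2 or 3.

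Lamb1 and Lamc1, the beta and gamma chains that partner Lama5, were not called in any of the 6 comparisons. Lamb1 ran from 1.75 to 2.23 over all 12 arrays, under the level of silent genes throughout, so no fold is given. Lamc1 was over that level in every population and ran from 3.03 to 4.30. Its mean was 3.22 ± 0.16 in Gata6+Itga6-, 3.59 ± 0.29 in Gata6+Itga6+, 3.94 ± 0.41 in CD34+ and 3.47 ± 0.54 in remaining basal cells (SD, n = 3 each). The widest gap for Lamc1, Gata6+Itga6- against CD34+ cells, was -0.73 (95% interval -1.36 to -0.10, limma adjusted p = 0.19).

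Col17a1, the transmembrane collagen of the hemidesmosome, was lower by value in Gata6+Itga6- cells at each of its 41 probe sets. Its level was 4.20, 4.60 and 3.80 on the Gata6+Itga6- arrays, 6.21, 5.97 and 6.09 on the Gata6+Itga6+ arrays, 6.52, 7.52 and 6.93 on the CD34+ arrays and 6.35, 6.22 and 6.94 on the remaining basal arrays. The highest Gata6+Itga6- array lay more than 1 log2 unit under the lowest array of any other population. Relative to Gata6+Itga6+ cells Col17a1 was 3.70-fold lower (-1.89 on the log2 scale, SE 0.28, limma adjusted p = 0.00652). It was 6.92-fold lower relative to CD34+ cells (-2.79, adjusted p = 0.000134) and 4.92-fold lower relative to remaining basal cells (-2.30, adjusted p = 0.000795). Each of these calls held under all 23 other settings. Col17a1 stayed over the level of silent genes in Gata6+Itga6- cells.

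Col7a1, the collagen of anchoring fibrils, had a separate range of levels in each population. It had 2.50, 2.39 and 2.16 on the Gata6+Itga6- arrays, 2.84, 3.18 and 2.94 on the Gata6+Itga6+ arrays, 4.53, 3.90 and 4.48 on the CD34+ arrays and 3.56, 3.87 and 3.66 on the remaining basal arrays. The ranges of the 4 populations did not overlap, and the order was Gata6+Itga6-, Gata6+Itga6+, remaining basal, CD34+. In Gata6+Itga6- cells Col7a1 was at least 3.58-fold lower relative to CD34+ cells (-1.95 on the log2 scale, SE 0.18, limma adjusted p = 6.79e-05) and at least 2.35-fold lower relative to remaining basal cells (-1.34, adjusted p = 0.00142). Neighbours in that order were not called apart. The change was -0.64 for Gata6+Itga6- against Gata6+Itga6+ cells (95% interval -1.04 to -0.23, adjusted p = 0.11), -0.71 for Gata6+Itga6+ against remaining basal cells (-1.11 to -0.30, adjusted p = 0.12) and 0.61 for CD34+ against remaining basal cells (0.21 to 1.01, adjusted p = 0.0988). All 3 passed without CD34+ replicate 2, the array with high Fabp4, and with the mean of probe sets in place of the median; whether that array's Fabp4 bears on Col7a1 was not tested.

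Dst, dystonin, whose epidermal form links keratin to the hemidesmosome, was called in 1 comparison. It stood at 4.09, 4.21 and 4.31 on the Gata6+Itga6- arrays, 4.34, 5.14 and 5.39 on the Gata6+Itga6+ arrays, 5.44, 5.72 and 5.51 on the CD34+ arrays and 4.72, 4.23 and 4.80 on the remaining basal arrays. CD34+ arrays were above all others, and Gata6+Itga6- and remaining basal arrays overlapped. Gata6+Itga6- cells had 2.55-fold less Dst relative to CD34+ cells (-1.35 on the log2 scale, SE 0.25, limma adjusted p = 0.00689). Against Gata6+Itga6+ cells the change was -0.75 (adjusted p = 0.182), and it passed without Gata6+Itga6+ replicate 1, with the mean of probe sets and with the brightest probe set. Against remaining basal cells it was -0.37 (adjusted p = 0.592) and passed with the mean of probe sets and the brightest probe set. Plec, plectin, the other plakin, ran from 3.18 to 4.10 over the 12 arrays. All 4 populations overlapped in Plec, and its widest change was -0.34 (Gata6+Itga6- against Gata6+Itga6+, 95% interval -0.75 to 0.08, adjusted p = 0.506).

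Among Gata6+ cells, those without surface Itga6 were compared with those that had it. Of the 9 genes 4 were lower and none higher in Gata6+Itga6- cells, where 3.18% of all genes were called, 1.17% higher and 2.01% lower: Lama3, Lama5, Lamb3 and Col17a1. The median change was -0.64 for the 9 genes and -0.03 for all genes. Against CD34+ cells 6 of 9 were lower and none higher, with 7.96% of all genes called, 3.22% higher and 4.74% lower, and medians of -1.14 and -0.02. Against remaining basal cells 5 were lower and none higher, with 5.11% of all genes called, 2.96% higher and 2.15% lower, and medians of -0.60 and 0.00. The counts moved with the setting. Against Gata6+Itga6+ cells the Lama5 call was lost under 20 of 23 other settings and that of Lama3 under 1. Calls were gained there for Col7a1 under 2 and Dst under 3. Against CD34+ cells the Col7a1 call was lost under 1. Against remaining basal cells calls were lost for Lama5 under 8 and Col7a1 under 1, and gained for Dst under 2. The 3 comparisons share the Gata6+Itga6- arrays. The mean of the suprabasal list was highest and that of the basal list lowest on those arrays, as given above, although the suprabasal Krt1 stood at 4.77 in Gata6+Itga6-, 7.00 in Gata6+Itga6+, 3.03 in CD34+ and 7.15 in remaining basal cells. Their part in these changes was not tested.

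**Figure D2:**
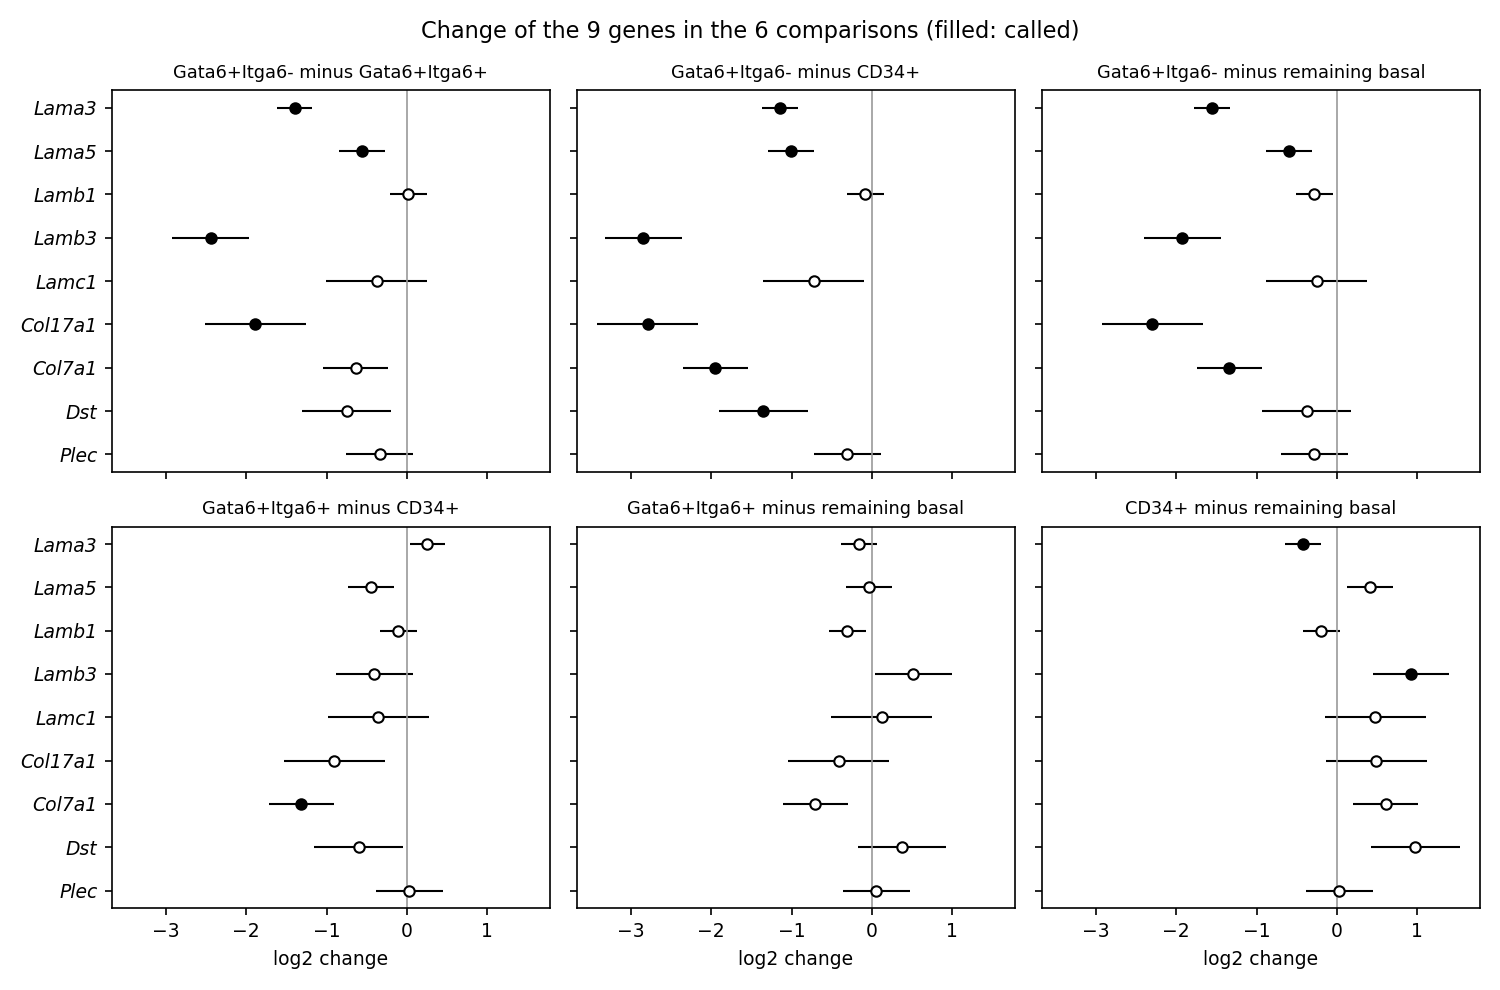
Log2 change of each gene in the 6 comparisons, first population minus second; points are limma estimates with 95% intervals, filled where the adjusted p is under 0.05. Lama3, Lamb3 and Col17a1 are filled and left of 0 in all 3 panels of Gata6+Itga6- cells, and the lower panels hold 3 filled points.

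A gene level is the median of its probe sets, so some single probe sets must show larger gaps than it. Those named below for wide gaps were picked by their called change on these same arrays. In the comparison of Gata6+Itga6- with Gata6+Itga6+ cells 73 of the 550 probe sets were called, all lower (13.3%, against 0.933% of all 221205 probe sets, 0.265% higher and 0.668% lower). Against CD34+ cells 151 were called, all lower (27.5%, against 3.98%, 1.55% higher and 2.43% lower), and against remaining basal cells 110, all lower (20.0%, against 2.38%, 1.37% higher and 1.01% lower). Without Gata6+Itga6+ replicate 3 the first count was 47. Probe sets of a gene read the same samples and often the same transcript, so they are not independent.

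Col17a1 was the most even, with 23, 33 and 31 of its 41 probe sets called lower in these comparisons. Lama3 had 13, 28 and 26 of 71 and Lamb3 9, 13 and 8 of 25. Dst had 20, 28 and 20 of 110, although its gene level was called against CD34+ cells only. Col7a1 had 7, 31 and 20 of 76. Plec had 0, 5 and 2 of 75 and Lama5 1, 13 and 3 of 85, while Lamb1 and Lamc1 had none.

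A Col7a1 probe set (4428179) showed a wide gap. It stood at 2.35, 1.04 and 1.69 on the Gata6+Itga6- arrays, 6.82, 6.98 and 6.62 on the Gata6+Itga6+ arrays, 8.26, 8.28 and 8.60 on the CD34+ arrays and 7.77, 8.0 and 7.62 on the remaining basal arrays. Every Gata6+Itga6- array was under the level of silent genes and every other array far over it, although the gene level was not called between the Gata6+ populations. It was at least 20.3-fold lower relative to Gata6+Itga6+ cells (-5.11 on the log2 scale, SE 0.29, limma adjusted p = 7.81e-05), at least 60.4-fold relative to CD34+ and at least 40.3-fold relative to remaining basal cells. Another probe set of Col7a1 (4850208) gave at least 18-fold, 84.1-fold and 40.8-fold in the same order. The brightest Col7a1 probe set (4956674) hardly moved, with means of 7.41, 7.27, 7.79 and 7.60 in Gata6+Itga6-, Gata6+Itga6+, CD34+ and remaining basal cells. With it alone, none of the Col7a1 calls against CD34+ or remaining basal cells passed.

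For Lamb3, probe set 4865295 had 1.5, 3.22 and 1.32 on the Gata6+Itga6- arrays, 5.86, 6.33 and 6.61 on the Gata6+Itga6+ arrays, 7.03, 7.42 and 7.41 on the CD34+ arrays and 5.14, 5.95 and 6.39 on the remaining basal arrays. It was at least 14.0-fold lower relative to Gata6+Itga6+ cells (-4.26 on the log2 scale, SE 0.48, limma adjusted p = 0.00286) and at least 28.3-fold lower than in CD34+ cells. Gata6+Itga6- replicate 2 was the highest array of that population, yet lower than any other population's. For Lama3, probe set 4962609 had 2.10, 2.59 and 1.55 on the Gata6+Itga6- arrays, against 5.19, 6.13 and 6.22 on the Gata6+Itga6+ arrays, 7.04, 6.03 and 6.21 on the CD34+ arrays and 5.99, 6.38 and 5.98 on the remaining basal arrays. It was at least 10.4-fold, 15.6-fold and 12.6-fold lower than in Gata6+Itga6+, CD34+ and remaining basal cells.

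The Dst probe set 5508075 was at 4.04, 4.76 and 3.89 on the Gata6+Itga6- arrays, 7.37, 7.53 and 7.20 on the Gata6+Itga6+ arrays, 7.72, 8.24 and 7.87 on the CD34+ arrays and 6.84, 7.71 and 7.95 on the remaining basal arrays. It was 8.79-fold lower relative to Gata6+Itga6+ cells (-3.14 on the log2 scale, SE 0.32, limma adjusted p = 0.00135), 13.1-fold lower than in CD34+ and 9.67-fold lower than in remaining basal cells, so parts of Dst were called where the gene median was not. Dst probe set 4858796 went the opposite way by value. It had means of 5.56 in Gata6+Itga6-, 5.36 in Gata6+Itga6+, 5.31 in CD34+ and 3.01 in remaining basal cells, but its change of 2.55 against remaining basal cells was not called (adjusted p = 0.0828). The probe sets of Col17a1 ran one way, from -3.77 to -0.20 against Gata6+Itga6+ cells. Its probe set 4310414 was 13.6-fold, 26.5-fold and 14.6-fold lower than in Gata6+Itga6+, CD34+ and remaining basal cells. Among the Lama5 probe sets 4483428 was at least 11.4-fold lower than in CD34+ cells. All the calls named here for 4428179, 4850208, 4865295, 4962609, 5508075 and 4310414 held under 16 other settings. Whether the use of probe sets within a gene differs between populations was not tested, and positions of probe sets are not given.

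**Figure D3:**
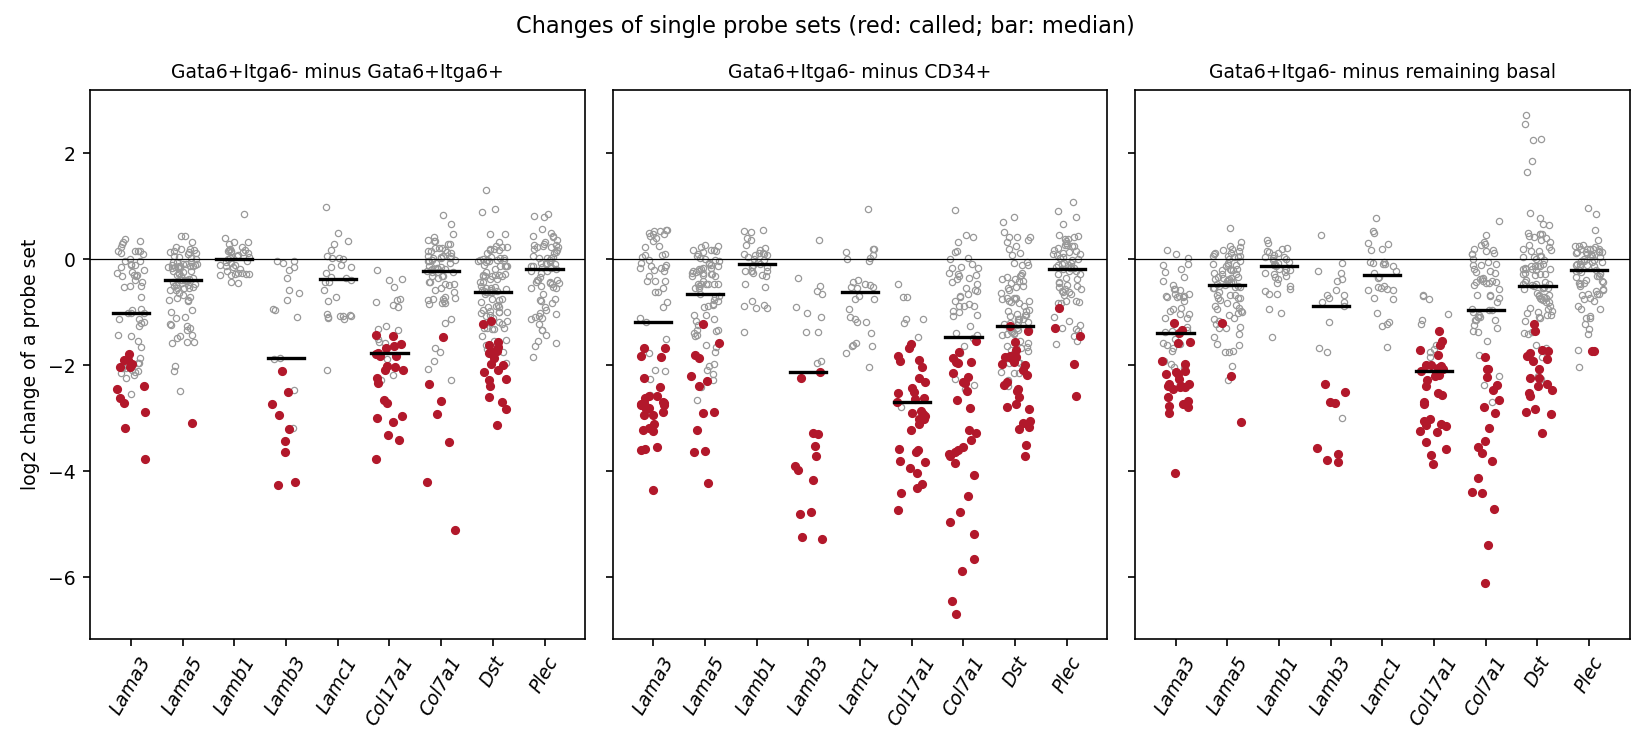
Log2 change of every probe set of the 9 genes in the 3 comparisons of Gata6+Itga6- cells; red points are called lower (adjusted p under 0.05), open points are not called, and the bar is the median of a gene's probe sets. No probe set was called higher, and the lowest point is a Col7a1 probe set at -6.69 against CD34+ cells.

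Among Itga6+ populations the genes differed less. Gata6+Itga6+ cells were set against CD34+ cells. Of the 9 genes 1 was lower and none higher, with 4.59% of all genes called, 2.4% higher and 2.18% lower: Col7a1, 2.49-fold lower (-1.31 on the log2 scale, SE 0.18, limma adjusted p = 0.0021). The call was lost with the brightest probe set (adjusted p = 0.261). Median changes were -0.40 for the 9 genes and 0.02 for all genes. Of 550 probe sets 30 were lower and none higher (5.45%, against 1.86%, 0.871% higher and 0.988% lower), 25 of them of Col7a1. Its probe set 5218987 had 2.70, 3.25 and 5.07 on the Gata6+Itga6+ arrays, against 7.52, 7.17 and 7.15 on the CD34+ arrays, a 12.2-fold lower level (log2 change -3.61, SE 0.49, adjusted p = 0.00329). Gata6+Itga6+ replicate 3 lay nearest to the CD34+ arrays and still below them. Without Gata6+Itga6+ replicate 1 or 2 or CD34+ replicate 3 the count of probe sets was 16, 18 and 17. Col17a1 was at -0.90 (95% interval -1.53 to -0.27, adjusted p = 0.128), and it passed with the mean of probe sets, after quantile normalization and with array brightness as a covariate.

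Gata6+Itga6+ and remaining basal cells share Itga6 and differ in the reporter. None of the 9 genes was called between them by limma, with 1.36% of all genes called, 1.07% higher and 0.286% lower. At an unadjusted limma p under 0.05, Lamb1 (-0.30) and Col7a1 (-0.71) were lower in Gata6+Itga6+ cells and Lamb3 (0.52) was higher. Lamb1 lay under the level of silent genes in both populations. The share of all genes at that unadjusted p is not given here. The member median was -0.04, against 0.04 for all genes. Of 550 probe sets 6 were lower and none higher (1.09%, against 0.528%, 0.44% higher and 0.0877% lower), and 5 of these were of Col7a1. The probe set count was 1 without Gata6+Itga6+ replicate 1, 2 without remaining basal replicate 1, and 3 without remaining basal replicate 2, Gata6+Itga6+ replicate 3 or Gata6+Itga6- replicate 3.

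CD34+ cells were then compared with remaining basal cells. Of the 9 genes 1 was higher, Lamb3 (1.89-fold, log2 change 0.92, SE 0.21, limma adjusted p = 0.0355), and 1 lower, Lama3 (1.34-fold, log2 change -0.42, SE 0.10, adjusted p = 0.0407), with 5% of all genes called, 3.32% higher and 1.67% lower. The chains of one laminin thus had opposite signs at gene level. Neither call was stable. Lamb3 kept its sign and lost its call under 13 of 23 other settings, among them without CD34+ replicate 1 or 3, remaining basal replicate 1 or 2, or any 1 Gata6+Itga6- replicate (adjusted p up to 0.257). Lama3 lost its call under 18 and turned to higher, not called, under 2: the median of probe sets over the level of silent genes (0.19) and the brightest probe set (0.34). Only leaving out CD34+ replicate 2, among the single arrays, kept the Lama3 call.

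The sign of the Lama3 change differed between its bright and dim probe sets. Of 24 probe sets with a mean over the arrays of 5 or more, 22 were higher in CD34+ than in remaining basal cells by value and none was called. Of 26 with a mean under 3, 20 were lower and 4 of these were called. Of the 21 between, 11 were higher and 10 lower, none called, with a median of 0.18. The median change was 0.50 for the bright and -0.55 for the dim set, and 0.18 over all 71, opposite in sign to the change of the gene level. The 4 called probe sets had means under the level of silent genes in CD34+ cells. Probe set 4638203 had 1.62, 1.47 and 1.68 on the CD34+ arrays, against 4.72, 5.21 and 3.64 on the remaining basal arrays (at least 4.17-fold lower, log2 change -2.93, SE 0.50, adjusted p = 0.0103). It had 2.55, 4.47 and 3.54 on the Gata6+Itga6+ arrays, which were over the CD34+ arrays, and 1.56, 2.20 and 2.48 on the Gata6+Itga6- arrays. The others had means of 1.43 in CD34+ against 3.45 in remaining basal cells (5042447), 2.21 against 4.06 (4418041) and 1.30 against 2.91 (4446681).

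**Figure D4:**
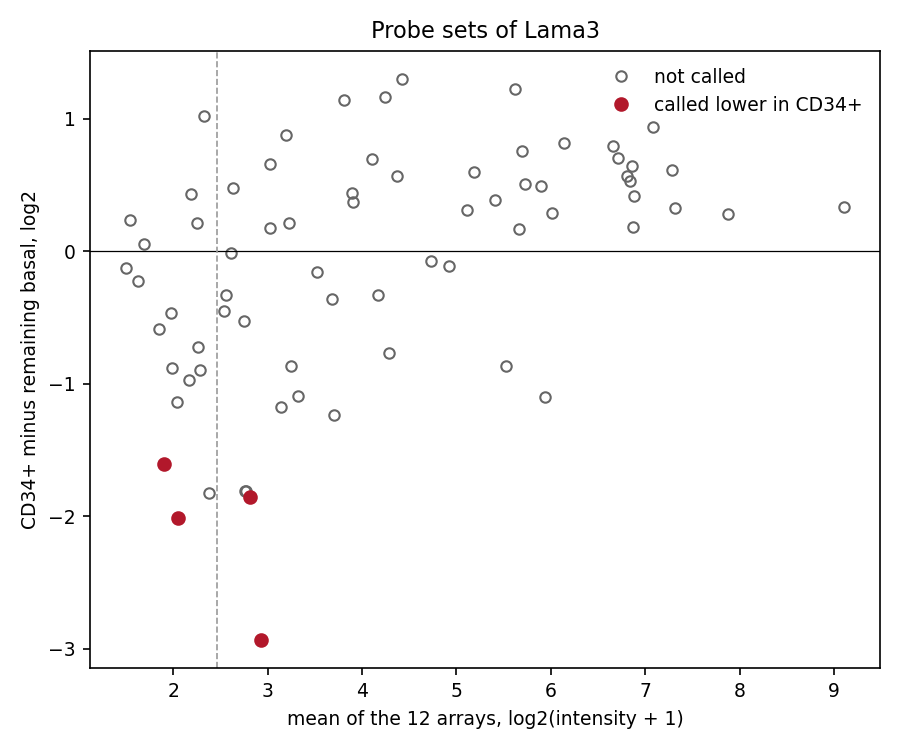
Change of the 71 Lama3 probe sets, CD34+ minus remaining basal cells on the log2 scale, against their mean over the 12 arrays; red points are called lower in CD34+ cells and the dashed line is the level of silent genes, 2.46. Bright probe sets lie mostly above 0 and the 4 called ones lie below 0 at the dim end.

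Over all 9 genes 7 probe sets were called higher and 5 lower in CD34+ than in remaining basal cells (2.18%, against 2.5% of all probe sets, 1.77% higher and 0.731% lower). The share of these genes was thus near that of all. The higher ones were 2 each of Lama5, Col7a1 and Dst and 1 of Lamb3. Besides the 4 of Lama3, 1 of Plec (4582639) was lower, with means of 4.12 in CD34+ and 5.80 in remaining basal cells. The count was 25 without remaining basal replicate 3, 4 without CD34+ replicate 3, 6 without remaining basal replicate 1, and 7 without CD34+ replicate 2 or remaining basal replicate 2. Dst was at 0.98 in CD34+ against remaining basal cells (95% interval 0.42 to 1.53, adjusted p = 0.0533) and passed under 4 of the 23 settings.

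The partners of these genes in hemidesmosomes and among laminin receptors, 12 genes and all measured, were in part lower in Gata6+Itga6- cells. Against Gata6+Itga6+ cells 7 of 12 were lower and none higher (median -1.21), where 2.01% of all genes were lower. Against CD34+ cells 7 were lower and 1 higher (median -1.56), with 4.74% of all genes lower and 3.22% higher. Against remaining basal cells 8 were lower and none higher (median -1.41), with 2.15% of all genes lower. Dag1, Cd151 and Fermt1 were not called in any of the 3. The first count was 3 without Gata6+Itga6- replicate 1 or 3 and 4 without Gata6+Itga6+ replicate 2 or 3. Itgb1, the integrin beta chain shared by laminin and collagen receptors, had means of 3.41 in Gata6+Itga6-, 6.97 in Gata6+Itga6+, 7.45 in CD34+ and 6.71 in remaining basal cells, changes of -3.56, -4.04 and -3.30. Itgb4, the partner of Itga6 in the hemidesmosome, changed by -1.78 (limma adjusted p = 0.0163), -2.42 and -1.90. The first Itgb4 call was lost without Gata6+Itga6+ replicate 2 or 3 or Gata6+Itga6- replicate 1 or 3. Krt5, a basal keratin that plakins anchor, changed by -2.49, -2.79 and -2.87. Itga3, of another laminin receptor, changed by -2.13 against CD34+ and -2.06 against remaining basal cells. Itga6 itself belongs to the gate and counts among the lower genes against Gata6+Itga6+ and remaining basal cells. The one higher gene, Lad1, the anchoring filament protein ladinin, changed by 1.27 against CD34+ cells (adjusted p = 0.0306) and was not called without CD34+ replicate 1, 2 or 3 or Gata6+Itga6- replicate 2 or 3.

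**Figure D5:**
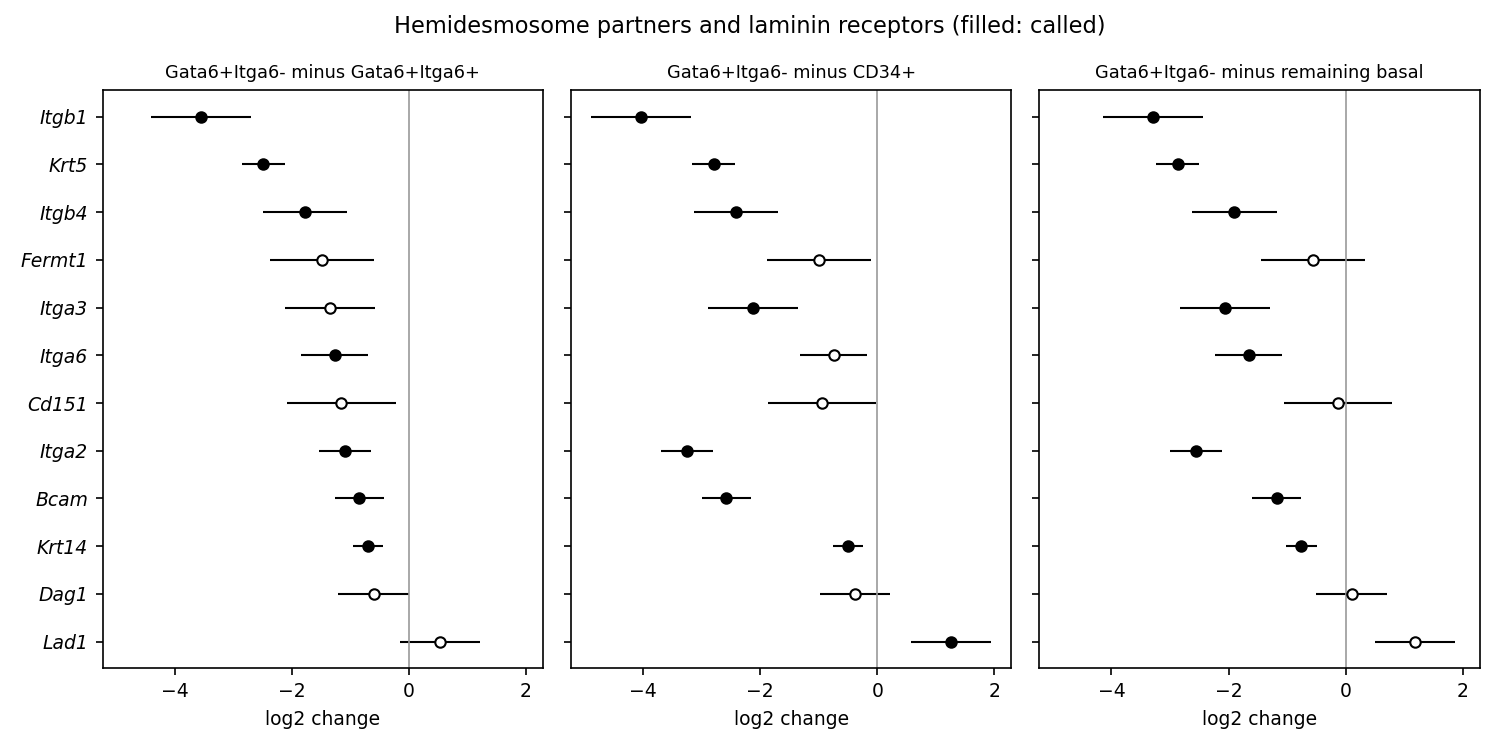
Log2 change of 12 hemidesmosome partners and laminin receptors in the 3 comparisons of Gata6+Itga6- cells; points are limma estimates with 95% intervals, filled where called. Itgb1, Krt5 and Itgb4 are filled and left of 0 in all panels, and Lad1 is the only gene filled right of 0, against CD34+ cells.

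Among Itga6+ populations the partners Bcam, a laminin receptor, and Itga2, of a collagen receptor, were the genes called. Gata6+Itga6+ cells had 2 of the 12 lower relative to CD34+ cells and 1 relative to remaining basal cells. CD34+ cells had 1 higher relative to remaining basal cells. Of all genes 2.18%, 0.286% and 3.32% were called in these directions. In Gata6+Itga6+ cells Bcam was lower relative to CD34+ cells (-1.73 on the log2 scale), and in CD34+ cells it was higher relative to remaining basal cells (1.40). In Gata6+Itga6+ cells Itga2 was lower relative to CD34+ (-2.16) and remaining basal cells (-1.46). With the brightest probe set alone the Bcam calls and the second Itga2 call were lost.

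Of 26 other basement membrane genes, Gata6+Itga6- cells had 2 lower relative to Gata6+Itga6+ cells, 11 relative to CD34+ and 5 relative to remaining basal cells, with none higher. Of all genes 2.01%, 4.74% and 2.15% were lower in these comparisons. Only 13 of the 26 were over the level of silent genes in any population, and the 11 include Col4a1 and Col4a4, which were under it in both groups. The first count was 1 without Gata6+Itga6+ replicate 3 or Gata6+Itga6- replicate 1 or 3, the next 7 without CD34+ replicate 3 or Gata6+Itga6- replicate 2, and the last 3 without remaining basal replicate 3 or any 1 Gata6+Itga6- replicate. Sparc, a collagen-binding matrix protein, was at 1.99 in Gata6+Itga6-, 2.78 in Gata6+Itga6+, 8.62 in CD34+ and 5.15 in remaining basal cells. Egfl6, a matrix protein of the follicle, was at 2.03, 4.02, 7.44 and 3.73, and Npnt, nephronectin, at 1.88, 2.70, 4.93 and 3.03 in the same order. CD34+ cells were higher than remaining basal cells in 6 of the 26 and lower in 1. Of all genes 3.32% were higher and 1.67% lower. The lower one was Smoc2, a matrix protein with means of 2.70 in CD34+ and 4.87 in remaining basal cells. Without remaining basal replicate 1 there were 2 lower. Gata6+Itga6+ cells were lower than CD34+ cells in 6 and higher in 1, again Smoc2, with 2.18% of all genes lower and 2.4% higher. Both counts of 1 are near the share of all genes. Gata6+Itga6+ cells were lower than remaining basal cells in 1, Sparc, where 0.286% of all genes were lower. Dermal fibroblast markers lay at or under the level of silent genes except Col1a1 and Col1a2 in CD34+ cells (2.83 and 2.89), and their part in these levels was not tested. Of 4 measured other laminin chains, Lama1 was lower relative to remaining basal cells in both Gata6+Itga6- (-1.02) and CD34+ cells (-0.98). Of all genes 2.15% and 1.67% were lower in these comparisons. Lama1 lost both calls with the brightest probe set.

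A further list held 5 measured genes, the plakins Dsp, Ppl and Evpl and the keratins Krt1 and Krt10. Dsp, the desmosomal plakin, was higher in Gata6+Itga6- cells relative to Gata6+Itga6+ (0.50 on the log2 scale) and remaining basal cells (0.66). Of all genes 1.17% and 2.96% were higher in these comparisons. The first Dsp call held under 10 of 22 settings and was lost without Gata6+Itga6+ replicate 1 or 3 or Gata6+Itga6- replicate 1 or 3. Krt1, a suprabasal keratin, was lower in the same comparisons (-2.23 and -2.38), with 2.01% and 2.15% of all genes lower. Against CD34+ cells Krt1 was higher (1.74). Krt10, its keratin partner, and Ppl, periplakin, were higher in Gata6+Itga6- cells relative to CD34+ cells (2.71 and 0.98). With Krt1 this made 3 of the 5 higher, where 3.22% of all genes were. Relative to CD34+ cells Gata6+Itga6+ cells had 2 of the 5 higher, with 2.4% of all genes higher. CD34+ cells had 1 higher and 2 lower relative to remaining basal cells, with 3.32% of all genes higher and 1.67% lower. The higher one, Dsp, held under 9 of 22 settings. Of 20 measured genes of matrix processing, Gata6+Itga6- cells had 1 lower relative to Gata6+Itga6+ cells (Plod3, a lysyl hydroxylase, -1.09), a share near the 2.01% of all genes, and 5 lower relative to CD34+ cells (3 without CD34+ replicate 3 or Gata6+Itga6- replicate 1). Of all genes 4.74% were lower relative to CD34+ cells. Of the 20, 1 was higher in that comparison, a share near the 3.22% of all genes, and none without CD34+ replicate 1 or Gata6+Itga6- replicate 2. Among the 5 was Tll1, a protease of the family that trims laminin and procollagen, at 1.49 in Gata6+Itga6-, 1.52 in Gata6+Itga6+, 3.70 in CD34+ and 1.53 in remaining basal cells.

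The genes nearest in pattern to each called gene were sought among 9100 genes by the root mean square difference of centred log2 levels over the 12 arrays. Nearest to Lamb3 was Met, the hepatocyte growth factor receptor (0.32), followed by Ppic and Peli2. Met had means of 2.11, 4.48, 4.78 and 4.24 in Gata6+Itga6-, Gata6+Itga6+, CD34+ and remaining basal cells. Nearest to Lama3 was Jag2, a Notch ligand (0.21), to Col17a1 D16Ertd472e (0.30), to Col7a1 Nt5c3b (0.26), to Dst Alms1 (0.18) and to Lama5 Stard13 (0.14). Plxnb1, a semaphorin receptor, was also among the nearest to Col7a1 (0.30).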

How the data were processed

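Gene expression was measured on 12 Affymetrix mouse exon arrays. Per the labels' protocols, RNA from the sorted cells was purified with a small-scale column kit, amplified and biotin-labelled. The authors made the deposited intensity values with RMA in Affymetrix Power Tools on mm9 (source: the submitters' processing notes), with no version stated. The scale was not stated and was read as linear from the array maxima, 2171.83 to 2953.46, too high for log2 values (array medians 3.97 to 4.57). Every log2 level rests on that reading. The deposited intensity table holds 235932 probe sets, of which 221205 with 1 symbol were used. Values became log2 of intensity plus 1, with 1 mean per population fitted to all arrays in limma 3.58.1 (R 4.3.3) and Benjamini-Hochberg adjustment over 17853 genes or 221205 probe sets. The added 1 makes folds of dim genes smaller. The number of arrays limits the precision, and an exact permutation test of 3 against 3 cannot go below 0.1, so none was run. The members, the lists of partner genes and markers and the tests were chosen with earlier results of these data known. Named genes are the 9 members, called list genes, and the 3 genes nearest in pattern to each called member; named probe sets are the brightest of a gene and those with the widest called change, except Dst 4858796 and Lama3 4418041 and 4446681, chosen after values were seen. Gene symbols were updated through RefSeq's gene table for GRCm38.p6, which gave no coordinates of probe sets. The fit was tested on simulated data. Alternatives covered the pseudocount, the gene summary, normalization, dim genes, blocks, array brightness, variance and each array left out.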

Additional observations from a re-analysis of the deposited data

How the results depend on the processing

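Of 54 changes of a gene between populations 18 were called, and 10 of these kept their sign and call under all 23 other settings: Lamb3 and Col17a1 in the 3 comparisons of Gata6+Itga6- cells, Lama3 and Lama5 and Dst against CD34+, and Lama3 against remaining basal cells. Lama3 in CD34+ against remaining basal cells turned to higher with the median of probe sets over the silent level (0.19) and the brightest probe set (0.34); the cause was not tested.

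The count of genes called in Gata6+Itga6+ against CD34+ cells, 1, became 2 with the mean of probe sets, quantile normalization or array brightness as covariate and 0 with the brightest probe set (1 to 2 with 1 array left out). Gata6+Itga6+ against remaining basal cells went to 1 with the mean of probe sets (0 to 1). CD34+ against remaining basal cells, 2, became 1 with probe sets over the silent level, quantile normalization or the replicate block. It became 0 with the brightest probe set, the array letter block, array brightness, trend and robust variance, or only these populations (0 to 3). With the mean of probe sets Lama3 lost its call there, while Col7a1 and Dst gained theirs. Probe set counts with 1 array left out ran from 47 to 68 in Gata6+Itga6- against Gata6+Itga6+ cells, 16 to 33 in Gata6+Itga6+ against CD34+, 1 to 7 in Gata6+Itga6+ against remaining basal and 4 to 25 in CD34+ against remaining basal cells. With the replicate block they were 19 in the second and 3 in the third, and 3 in the third with the array letter block. Deviations of same-numbered arrays correlated from -0.10 to 0.19, and those of differently numbered arrays from -0.17 to 0.20. No large effect shared by a number was seen, but correlations so near 0 cannot tell whether same-numbered samples were paired.

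The percentage of all genes called ran from 1.6 to 5.57 in Gata6+Itga6- against Gata6+Itga6+, 5.91 to 12.2 in Gata6+Itga6- against CD34+, 3.61 to 8.12 in Gata6+Itga6- against remaining basal, 2.82 to 7.28 in Gata6+Itga6+ against CD34+, 0.616 to 2.54 in Gata6+Itga6+ against remaining basal and 3.2 to 8.47 in CD34+ against remaining basal cells. Scaling and other settings moved the share of all called genes that were higher. Quantile normalization and array brightness gave 45.8% and 52.1% in Gata6+Itga6- against Gata6+Itga6+ (36.7% in the main setting). They gave 49.3% and 50.8% in Gata6+Itga6- against CD34+ (40.4%) and 63.2% and 60.8% in Gata6+Itga6+ against remaining basal (78.9%). In CD34+ against remaining basal cells they gave 53.8% and 51.3% (66.5%). The first comparison also had 23.1% with the brightest probe set and 45.7% without Gata6+Itga6- replicate 3. Gata6+Itga6+ against remaining basal had 67.9% without remaining basal replicate 1 and 92.7% with only the populations compared. Signal over background limits Lamb1, Lama5 and the lower end of Lamb3 and Col7a1.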
